A study of Mus musculus with 21 samples.

Results

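The regions described here carried an anti-Myc ChIP-seq peak in exactly 1 of 4 lists from mouse cells induced to make Myc-tagged Sox7, and in none of the 4 lists from uninduced cells. Peaks of the 8 ChIP lists were merged where they overlapped by 1 bp, which gave 4548 regions, and 2339 of these met the rule (51.4%). Induced list 1 gave 383 of them, list 2 gave 525, list 3 gave 1348 and list 4 gave 83. The regions were chosen by the presence of peaks in the ChIP lists, so the source list and peak scores below are descriptions. The ATAC-seq lists played no part in the choice and are the separate readout. The rule itself sets induced against uninduced lists, and whether that choice favours sites open in induced cells was not tested.

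All samples came from the A2lox-Sox7-Myc embryonic stem cell line, derived from E14Tg2a, in which doxycycline switches on Sox7-Myc. The cells were grown as embryoid bodies, aggregates in which mesoderm forms, and were taken at day 4, so the uninduced samples carry the same transgene without the drug. Induced ChIP samples (4) and induced ATAC samples (2 CPC, 2 EPC) had 24 h of doxycycline at 1 µg/ml, and uninduced ChIP (4), input (1) and ATAC samples (2 CPC, 2 EPC) had none. ChIP was done on unsorted cells. ATAC-seq, in which a transposase marks accessible DNA, was done on sorted PDGFRα+FLK1+ cells (CPC, cardiac progenitors) and PDGFRα-FLK1+ cells (EPC, endothelial progenitors), so the readouts come from different cell populations of the same line.

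Sox7 is a SOXF transcription factor. SOX proteins contact the minor groove of DNA through an HMG box, bend it, and prefer short sequences with a core of the ACAAT or ACAAAG type. SOXF factors are known for their part in endothelial and arterial development, and Sox7 also marks primitive endoderm. A peak that appears in 1 list of several has no support from a replicate in that assay, so another assay of the same chromatin is the usual place to look at such peaks further.

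Some RefSeq promoter windows (GRCm38.p6, 250 bases before to 50 after a start) are shown. They are the windows under a single-list region with an ATAC peak in all 4 induced and none of the 4 uninduced libraries. The ATAC peak had to touch the region, and its overlap with the window itself was not checked. All 4 windows lie under peaks of induced list 3. They are written 5′ to 3′ on the gene's strand, and capitals mark ACAAT and ACAAAG on either strand (ATTGT and CTTTGT are the reverse strand). Myt1, a zinc-finger factor of neural and endocrine progenitors, has its window at chr2:181763082-181763381 (plus strand). The window of 9030622O22Rik lies at chr2:148040299-148040598 (minus strand), next to Foxa2. The predicted genes Gm34177 and Gm52731 have windows at chr1:184329340-184329639 and chr4:47111910-47112209 (both minus strand).
Myt1: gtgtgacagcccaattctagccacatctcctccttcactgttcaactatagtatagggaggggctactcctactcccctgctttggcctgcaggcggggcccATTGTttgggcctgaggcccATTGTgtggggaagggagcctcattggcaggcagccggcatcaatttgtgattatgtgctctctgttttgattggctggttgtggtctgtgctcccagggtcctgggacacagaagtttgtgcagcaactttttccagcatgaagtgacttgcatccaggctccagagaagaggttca
9030622O22Rik: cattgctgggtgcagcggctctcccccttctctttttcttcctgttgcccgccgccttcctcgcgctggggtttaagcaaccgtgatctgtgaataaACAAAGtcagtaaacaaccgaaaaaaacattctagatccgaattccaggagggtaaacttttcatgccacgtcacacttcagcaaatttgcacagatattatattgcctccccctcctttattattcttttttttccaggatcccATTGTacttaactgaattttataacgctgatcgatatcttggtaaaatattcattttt
Gm34177: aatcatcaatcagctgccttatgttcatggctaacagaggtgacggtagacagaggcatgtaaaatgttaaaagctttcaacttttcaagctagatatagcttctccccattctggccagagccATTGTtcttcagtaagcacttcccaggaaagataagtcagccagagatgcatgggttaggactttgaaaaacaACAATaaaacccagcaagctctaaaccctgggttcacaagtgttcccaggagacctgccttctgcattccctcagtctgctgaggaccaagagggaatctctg
Gm52731: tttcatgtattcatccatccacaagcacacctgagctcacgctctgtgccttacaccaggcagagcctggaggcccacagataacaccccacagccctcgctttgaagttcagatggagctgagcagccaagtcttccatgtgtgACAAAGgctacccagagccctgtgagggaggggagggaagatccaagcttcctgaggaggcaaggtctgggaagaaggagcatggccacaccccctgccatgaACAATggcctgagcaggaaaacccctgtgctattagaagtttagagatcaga
Each window held at least 1 ACAAT, and Myt1 and Gm34177 held 2. The windows of 9030622O22Rik and Gm52731 each also held 1 ACAAAG.

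The lists held 1061 to 2807 peaks in induced ChIP samples, 772 to 1059 in uninduced ChIP samples and 689 in the input. ATAC lists held 27979 to 30732 peaks in induced and 23068 to 27934 in uninduced samples. The depth behind them is unknown. Equal peak starts made up 75.8% of the shorter of uninduced ChIP lists 2 and 4 (585 of 772), against at most 1.04% in other pairs, so both were taken as 1 library; the rule picks the same regions either way. As a check of the sort labels, Kdr (FLK1), Pdgfra and Tal1 had an ATAC peak in 8 of 8 ATAC libraries, and the endothelial gene Cdh5 in 7, so presence of a peak does not separate CPC from EPC at these genes.

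The share of each list that was seen in that list alone differed widely. Regions found once made up 48.0% of the peaks of induced list 3, 28.4% of list 2, 25.3% of list 1 and 7.82% of list 4. The order of these shares was that of list length, with 2807, 1851, 1511 and 1061 peaks in lists 3, 2, 1 and 4. Peak scores, which the authors' caller gives as minus 10 times the log10 of p, were low. The median was 51.2 (quartiles 44.2 and 63.6) against a lowest score of about 40. By source list the median was 45.6, 51.7, 53.8 and 49.3 in lists 1 to 4. Regions with 2 induced lists had a median of 73.5, those with 3 or 4 induced lists 135, and regions with a peak in 1 uninduced library and no induced list (401 regions, the comparison set below) 45.5. Scores depend on depth, so values of different lists are set side by side and not tested.

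**Figure D1:**
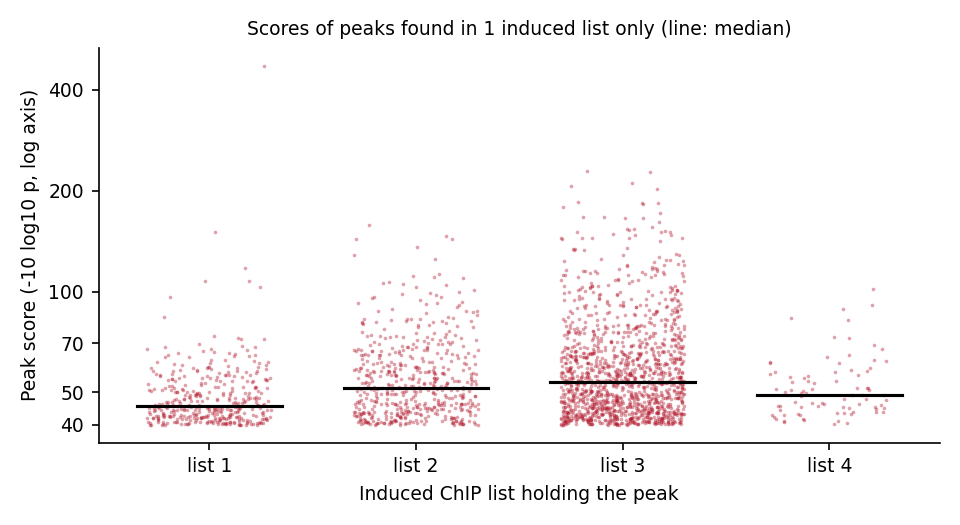
Each point is 1 region, placed by the induced ChIP list that holds its peak and by the peak's score (minus 10 log10 p, log axis); the black line is the median. The points thin out above 70, and those of 100 or more are mainly from list 3 (106 of 130).

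Single-list regions had a median width of 885 bp, against 996.5 bp for regions with 2 induced lists and 826 bp for the uninduced comparison set, and 56 were wider than 2000 bp. List 1 had the narrowest, at a median of 740 bp, and the other lists had medians of 932, 884.5 and 945 bp in lists 2, 3 and 4. An input peak was touched by 29 of 2339 (1.24%, exact 95% interval 0.832 to 1.78). The rule leaves out regions with a peak in any uninduced list, so regions called in every sample could not be counted here. The shares were 1.31%, 1.33%, 0.742% and 8.43% in lists 1 to 4, against 4.99% of the uninduced comparison set. Intervals here cover counting error only.

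At the edge of the rule, regions with a second induced peak were left out however weak that peak was. The 3 such regions with the highest mean score had peaks of 342 (list 3) and 45.6 (list 2) at chr10:21745671-21746772, of 341 (list 3) and 43.9 (list 1) inside Opcml, a neural adhesion gene, and of 241 (list 4) and 139 (list 1) inside Gm40363. In the first 2 of these the weaker call was near the lowest score listed. Of the 2339 single-list regions, 25 were within 1 kb of a peak of another induced list. The rule itself limits this count, because an overlapping peak takes a region out and induced peaks had median widths of 916 to 1058 bp. The median gap was 104 to 275 kb by list. The authors' deposited table of Sox7 regions, with 666 entries, overlapped 0 of the 2339 single-list regions, 338 of the 418 regions with 2 induced lists and 232 of the 235 with 3 or 4. That table was deposited with these data, so the overlap is a description and not an independent readout.

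The ATAC lists show how chromatin at these regions differed with Sox7 induction. Pooled over lists, ATAC peaks were more frequent there in every induced library than in any uninduced library of the same cell type. In CPC, 33.8% and 31.8% of them had an ATAC peak in the induced libraries, against 17.7% and 15.5% in the uninduced ones. EPC gave 38.8% and 40.4% in induced libraries, against 24.3% and 20.5% in uninduced ones. A bulk peak call cannot tell more cells with an open site from a more open site in each cell. The mean difference was 16.2 points in CPC (32.8% ± 1.42 against 16.6% ± 1.57, SD, n = 2 each) and 17.2 points in EPC (39.6% ± 1.15 against 22.4% ± 2.72, SD, n = 2 each). Over both, it was 16.7 points, with a two-sided exact permutation p of 0.0556 when labels were exchanged within cell types; this is the smallest p the design allows (0.333 within 1 cell type), so it cannot pass 0.05. Induced ATAC lists were longer, and with every ATAC list reduced to the length of the shortest the difference was 13.1 points.

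At uninduced single-library regions, the shares were 8.60% in induced and 9.73% in uninduced ATAC libraries on average, a difference of -1.12 points (exact permutation p = 0.222). The difference between the sets was 17.8 points (exact permutation p = 0.0556, again the smallest possible). Both sets were chosen by induction state, in opposite directions, and the part of that choice in the difference was not tested. Regions with 2 induced lists gained 23.7 points and those with 3 or 4 gained 33.6 points, and regions found once differed from them by -7.02 and -16.9 points. These sets also differed in uninduced libraries, at 19.5% for regions found once, 29.5% for 2 lists and 39.8% for 3 or 4. The ratio of induced to uninduced shares was similar, at 1.86, 1.80 and 1.84 in that order. By source list it was 1.33, 1.16, 2.04 and 1.52 in lists 1 to 4.

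The pooled value hides a division by source list. Members of list 3 had an ATAC peak in 51.7% of cases in induced libraries, against 25.4% in uninduced ones, a gain of 26.3 points. Lists 1 and 4 gained far less, with 27.8% in induced and 20.9% in uninduced libraries for list 1 (6.92 points) and 21.1% and 13.9% for list 4 (7.23 points). List 2 members had almost no ATAC peaks in either state, at 5.05% in induced and 4.33% in uninduced libraries, a difference of 0.714 points (exact permutation p = 0.278). Between lists, the gain of list 3 exceeded that of list 1 by 19.4 points, of list 2 by 25.6 points and of list 4 by 19.1 points. Each of the 10 differences of gain computed gave the smallest exact permutation p of 0.0556, also after Benjamini-Hochberg adjustment, including one of only 1.84 points between list 2 and the uninduced set, so this p does not grade them. Without the members of list 3, the pooled gain fell to 3.66 points. With induced list 3 left out before merging, which admits regions it shared with 1 other list, the gain was 9.77 points in all, and 14.6, 5.21 and 12.1 points for single-list regions of lists 1, 2 and 4.

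**Figure D2:**
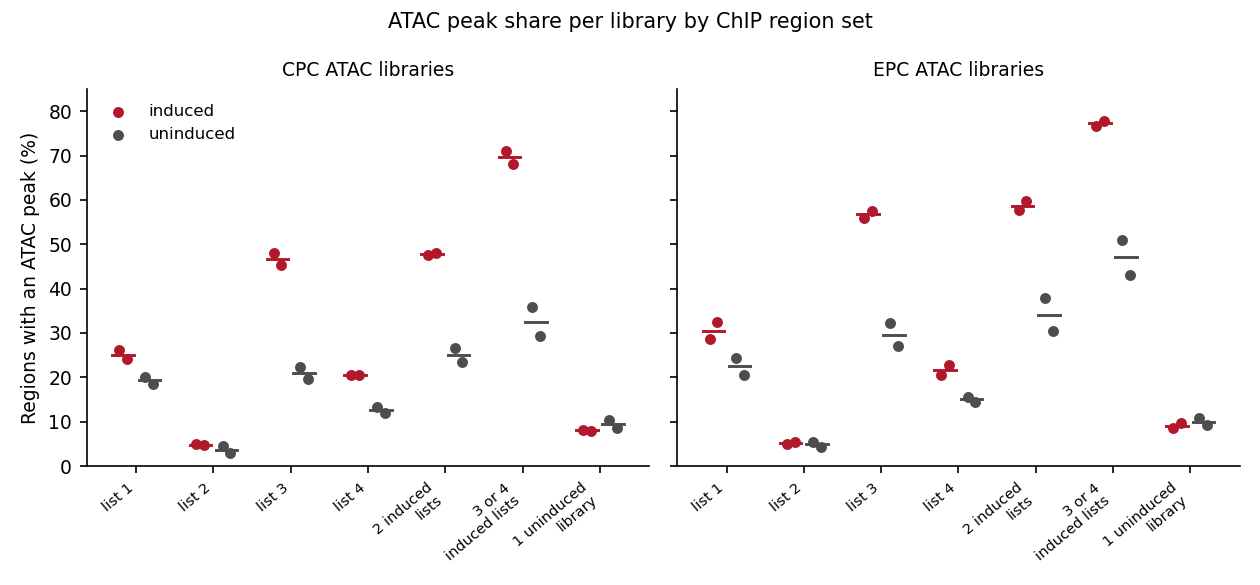
Each point is 1 ATAC library and gives the share of regions (%) with an ATAC peak in CPC (left panel) or EPC (right panel), induced in red and uninduced in grey, with the mean as a line; lists 1 to 4 are the source lists of single-list regions, and the other sets stand to their right. Induced and uninduced points lie far apart for list 3 (51.7% against 25.4% on average) and nearly coincide for list 2.

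List 2 was also low in regions it shared with list 4, where 21 regions had ATAC shares of 1.19% in induced and 0% in uninduced libraries. Where list 2 shared a region with list 3, 137 regions had 40.7% in induced and 18.2% in uninduced libraries. Where it shared a region with list 1, 25 regions had 34% in induced and 22% in uninduced libraries, so list 2 was not low in every pair. The 180 regions shared by lists 1 and 3 had 73.2% and 42.5%. Lists 3 and 4 shared 47 regions (48.9% and 28.7%), and lists 1 and 4 shared 8 (43.8% and 37.5%). Pairs were looked at after their values were known, and no test was made of them.

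EPC libraries held more peaks at these regions than CPC libraries, in both states. The difference was 6.32 points over all members (39.6% against 32.8% induced, 22.4% against 16.6% uninduced; exact permutation p = 0.0556, the smallest possible) and 9.31 points for list 3. For list 1 it was 4.31 points, for list 4 1.81 points (exact permutation p = 0.167) and for list 2 0.810 points (exact permutation p = 0.278). Reproducible regions had the same order, so it is not particular to regions found once. With 2 induced lists, EPC had 58.7% against 47.8% induced and 34.1% against 25.0% uninduced. With 3 or 4, the shares were 77.2% against 69.6% and 47.0% against 32.6%.

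Region by region, gains far outnumbered losses. A region was counted as gained in a cell type when both induced and neither uninduced ATAC library had a peak, and as lost in the reverse case. In CPC, 276 of the 2339 were gained (11.8%; 9.21% of all 4548 ChIP regions) and 4 were lost (0.171%; 0.308% of all ChIP regions). In EPC, 297 were gained (12.7%; 9.45% of all ChIP regions) and 6 were lost (0.257%; 0.792% of all ChIP regions). Over all 51264 ATAC regions, the gained share was 5.75% and the lost share 2.35% in CPC; in EPC they were 6.12% and 1.82%. The background includes the members themselves, and the excess over it is modest.

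Gains in CPC and EPC coincided in 114 regions (4.87%; 3.61% of all ChIP regions), of which 105 came from list 3. Another 162 were gained in CPC and not EPC (6.93%; 5.61% of all ChIP regions) and 183 in EPC and not CPC (7.82%; 5.85% of all ChIP regions). In all, 459 were gained in at least 1 cell type (19.6%; 15.1% of all ChIP regions): 414 of list 3 (30.7%), 34 of list 1 (8.88%), 7 of list 4 (8.43%) and 4 of list 2 (0.762%). Among the uninduced comparison set, 3 of 401 were gained. A further 248 single-list regions had a peak in all 8 ATAC libraries (10.6%; 17.6% of all ChIP regions). None in any library was seen at 1201 (51.3%), near the 47.5% of all ChIP regions. The share with none was 90.9% in list 2, 67.5% in list 4, 61.9% in list 1 and 32.0% in list 3.

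**Figure D3:**
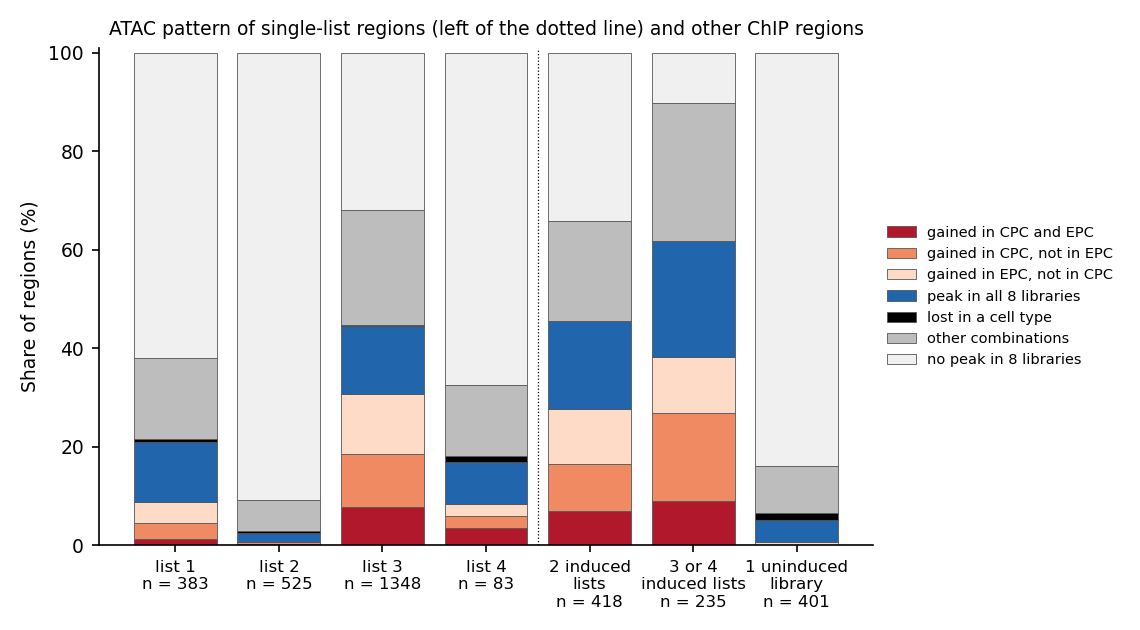
Bars give the share of regions (%) with each ATAC pattern over 8 libraries, for single-list regions of lists 1 to 4 (left of the dotted line) and for regions with 2 induced lists, 3 or 4 induced lists, or 1 uninduced library. Red shades mark gained regions, which make up 30.7% of list 3 and 0.762% of list 2, and pale grey marks regions without any ATAC peak.

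Seen from the ATAC side, single-list ChIP regions pooled over lists met more of the gained chromatin than reproducible ones, which are fewer. Most of this came from list 3. Of the 2946 ATAC regions gained in CPC, 273 held a single-list ChIP region (9.27%), 68 one with 2 induced lists, 63 one with 3 or 4, and 0 one of the uninduced set (up to 0.125% by the exact interval). List 3 met 247 of the 273, and lists 1, 2 and 4 met 17, 5 and 4, each fewer than either reproducible set. EPC gave 293 of 3139 gained ATAC regions (9.33%), of which list 3 met 263. Of the 593 gained in both cell types, 115 held one (19.4%), of which list 3 met 104. Against these, 22 held a region with 3 or 4 induced lists. Lost ATAC regions held few, 4 of 1203 in CPC and 3 of 935 in EPC. ATAC regions open in all 4 libraries of a cell type held one in 2.01% of 16355 cases in CPC and 2.57% of 17298 in EPC.

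In list 3 the difference between induced and uninduced ATAC shares was larger in each higher score class, and in list 2 it was at most 1.47 points in any class; no trend was tested. For list 3, ATAC shares in induced against uninduced libraries differed by 20.7 points among 549 members scored 40 to under 50, 25.5 points among 494 scored 50 to under 70, 30.8 points among 199 scored 70 to under 100 and 50.9 points among 106 scored 100 or more. The share gained in CPC or EPC was 23.7%, 29.6%, 36.2% and 62.3% in the same classes (exact 95% interval of the last 52.3 to 71.5). For list 2, the differences were 0.212, 1.10, 1.10 and 1.47 points in the same order, and 0 of the 17 members scored 100 or more were gained (up to 19.5% by the exact interval). List 1 had most of its members in the lower classes, with differences of 5.50 points (259 members) and 10.5 points (112 members). Its 6 members scored 100 or more had more ATAC peaks than the rest in both states, at 66.7% in induced and 75% in uninduced libraries.

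**Figure D4:**
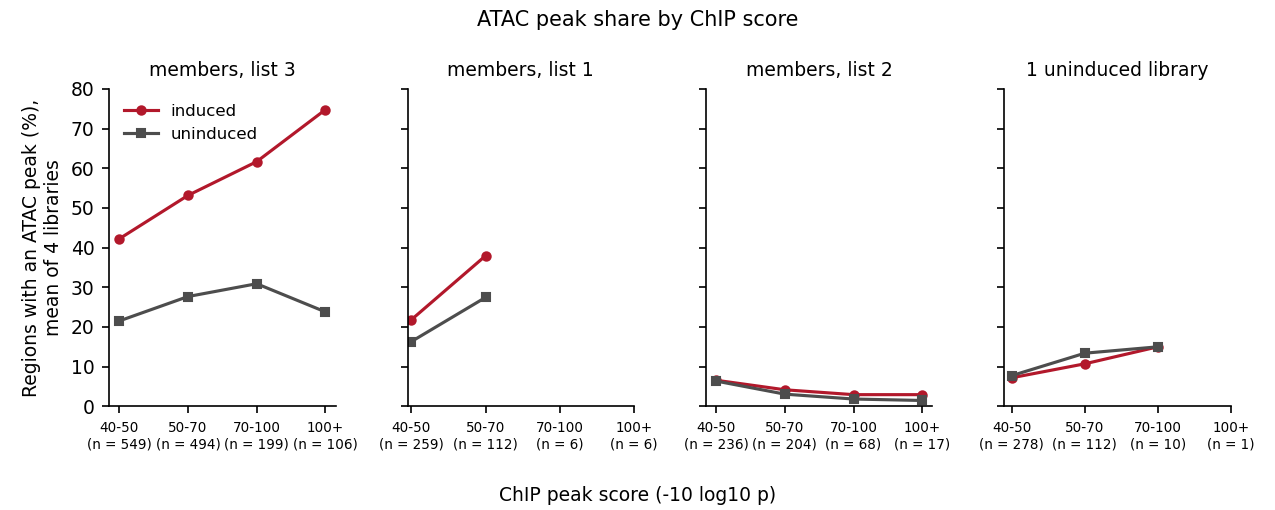
The share of regions (%) with an ATAC peak is plotted against the ChIP score class of the region, as the mean of 4 induced (red) and 4 uninduced (grey) libraries, for single-list regions of lists 3, 1 and 2 and for the uninduced comparison set; classes under 10 regions are not drawn. The red and grey lines part with rising score in list 3, where the difference was 20.7 points in the lowest and 50.9 points in the highest class, and stay together in list 2.

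The ATAC peaks lay near the middle of most list 3 regions with a peak, and mostly away from the middle of list 2 regions. Only 25 to 29 regions of list 2 had a peak in a given induced library. In the 4 induced libraries the median distance between the centres was 85.5 to 95 bp for list 3, and 84.6% to 86.5% of the overlapping peaks were within 250 bp. For list 2 the median was 494 to 713 bp, at a median region width of 932 bp, and 15.4% to 34.6% were within 250 bp. List 1 had medians of 151 to 192 bp, list 4 96.0 to 184 bp and the uninduced comparison set 310 to 398 bp. Counting an ATAC peak only where it covered the centre of the region left the pooled difference at 16.9 points.

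**Figure D5:**
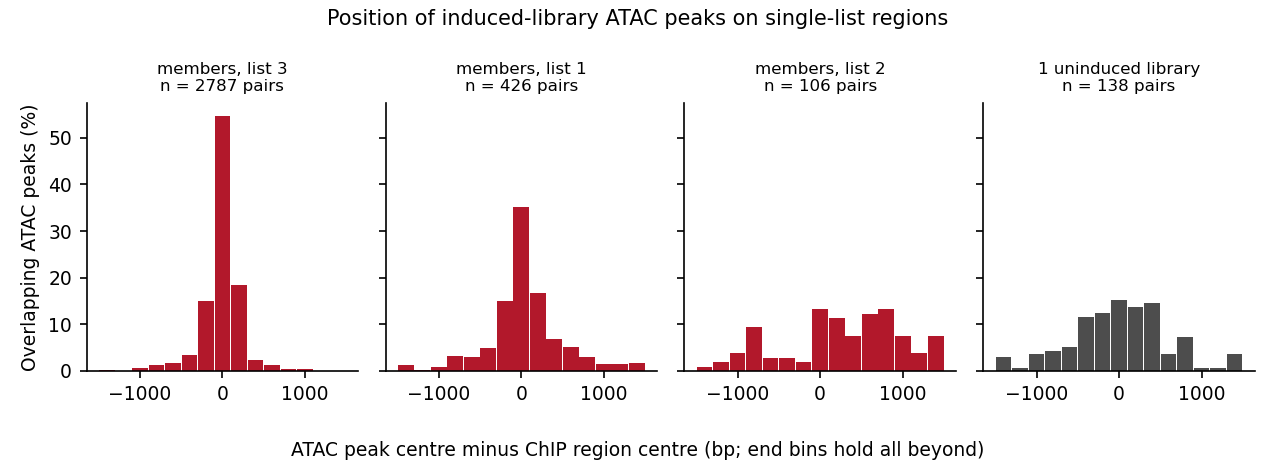
Histograms give the distance (bp) from the centre of a ChIP region to the centre of each ATAC peak that overlaps it in the 4 induced libraries, as a share (%) of such peaks, for single-list regions of lists 3, 1 and 2 and for the uninduced comparison set. List 3 has a sharp central bar, with medians of 85.5 to 95 bp by library, and list 2 peaks lie further out, with medians of 494 to 713 bp.

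Taking each ChIP list as the unit, 4 induced lists were set against 3 uninduced libraries over 5 measures of their single-list regions. The share with a peak in any induced ATAC library was 36.6%, 8.19%, 67.4% and 27.7% in induced lists 1 to 4, against 12.1%, 14.6% and 10.0% in the uninduced libraries. The groups overlapped, because list 2 lay below all 3 uninduced values (exact permutation p = 0.229, adjusted p = 0.286). The share with a peak in any uninduced ATAC library was 28.5%, 6.67%, 38.2% and 21.7% in induced lists, against 12.8%, 19.2% and 11.5% (exact permutation p = 0.343, adjusted p = 0.343). Induced lists 1, 3 and 4 therefore lay above the uninduced libraries on chromatin open before induction too.

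The share gained in CPC was 4.44%, 0.762%, 18.5% and 6.02% in induced lists 1 to 4, against 0% in each of the 3 uninduced libraries. The gain of the ATAC share was 6.92, 0.714, 26.3 and 7.23 points in induced lists, against -0.532, -1.54 and -1.35 points. In both measures the groups did not overlap, at the smallest exact permutation p for 4 against 3 libraries, 0.0571 (adjusted p = 0.143), which cannot pass 0.05. This separation was lost at a score of 100 or more in every ChIP list, where the share gained in CPC differed by 7.79 points (exact permutation p = 0.914) and the ATAC gain by 17.1 points (exact permutation p = 0.171). With ATAC peaks scored 100 or more, the share gained in CPC differed by 3.60 points (exact permutation p = 0.4), and without 1 of 3 CPC ATAC libraries in turn (induced 1, induced 2 and uninduced 1) its exact permutation p was 0.114 to 0.171. The share gained in EPC was 5.74%, 0.190%, 20.0% and 6.02% in induced lists, against 0.709%, 1.54% and 0%, and here list 2 fell among the uninduced values (exact permutation p = 0.171, adjusted p = 0.286).

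The strongest single-list peaks differed by list in the same way. In list 3, the highest scores lay inside Rab27a, a small GTPase gene of vesicle transport (chr9:73079458-73080403, score 229), and inside Sdk1, a neuronal adhesion gene (chr5:142129568-142130757, score 227). Both had an ATAC peak in 4 of 4 induced and 0 of 4 uninduced libraries. A peak inside the zinc-finger gene Zfp366 (score 210) had an ATAC peak in 2 of 2 induced EPC libraries and none in the other 6. The fourth, at chr9:116382327-116383232 with no protein-coding gene within 50 kb (score 206), had one in 1 of 2 induced CPC and 2 of 2 induced EPC libraries and in no uninduced library.

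In list 2, the 4 strongest peaks had an ATAC peak in 0 of 8 libraries. They lay inside Tbc1d5, a Rab GTPase regulator (chr17:50959246-50960906, score 159), inside Plekhh2 (chr17:84613064-84614665, score 144), and at chr10:48731239-48732518 (score 147) and chr9:31770435-31772730 (score 144) with no gene within 50 kb. In list 1, the strongest peak was 4348 bp wide and lay on chromosome Y (chrY:90809808-90814155, score 472), and others of 5691 and 6106 bp lay inside Gm10340 (score 150) and 2.14 kb from Gm42346 (score 108). These 3 wide regions had an ATAC peak in 8, 7 and 8 libraries. The remaining one of list 1 was 12.5 kb from Tox2, an HMG-box gene (score 118), and had a peak in all 8. List 4 had weaker leaders: 14.1 kb from Gm38706 (score 102, 1 of 8 libraries), 7.87 kb from the interferon-inducible Mndal (score 88.4, both induced EPC libraries) and at chr10:19514219-19515292 (score 91.3, on an input peak) and chr12:114014114-114015118 (score 83.4), the last 2 in 0 of 8 libraries.

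Of the 10 highest scores among regions gained in both cell types, all were from list 3. Besides Rab27a and Sdk1, they lay 1.53 kb from Foxa2, the pioneer factor of endoderm (chr2:148040310-148041344, score 203), inside Pcdh9, a protocadherin (score 184), inside Macrod2, an ADP-ribose hydrolase gene (score 172), across the start of Myt1 (score 167), inside Scrt2, a zinc-finger repressor of neurons (score 145), and 38.6 kb from Thumpd3 (score 145). The other 2 had no gene within 50 kb (scores 153 and 147). The Foxa2 region is the one under the 9030622O22Rik window printed above, and the Myt1 region covers all 300 bases of its window.

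Single-list regions were spread over many genes. Each region was given to the protein-coding genes whose body it overlapped, or otherwise to the nearest within 50 kb, so a name says position and not regulation. Of 2339 regions, 1113 lay in a gene body (47.6%), 746 within 50 kb, and 480 had no gene (20.5%). Together they named 1669 of 21887 genes (7.63%), and regions gained in CPC or EPC named 335 genes (1.53%). Most genes had 1 region (1482), and 5 had 4: Ddc, Frmd4a, Gpx5, Prdm6 and Rad51b, named after their values were seen. Their bodies measured 84.0, 596, 6.30, 112 and 551 kb in that order, and the counts were not adjusted for gene length. Genes that also had a reproducible site were counted too. Of 1859 regions with a gene, 42 shared it with a region found in 3 or 4 induced lists (2.26%, exact 95% interval 1.63 to 3.04), against 2.70% in the uninduced comparison set.

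Of 275 genes in 15 lists for lineages and pathways, 47 had a single-list region (17.1%; 7.63% of all genes) and 16 had a gained one (1.53% of all genes). Housekeeping genes, at 2 of 14, were close to the pooled share, and gene length was not matched. By list, 6 of 28 endothelial genes, 2 of 20 blood, 3 of 24 cardiac, 7 of 22 endoderm, 3 of 14 early mesoderm, 4 of 19 SOX, 3 of 20 Notch, 4 of 15 Hippo, 2 of 24 Wnt and 5 of 25 BMP and TGF-beta genes had one. VEGF and guidance genes had 3 of 19, pluripotency genes 2 of 15, smooth muscle genes 1 of 8 and neural genes 1 of 12. Gained regions were found at 4 endoderm, 3 SOX, 2 endothelial and 2 VEGF and guidance genes, at 1 each of the blood, smooth muscle, neural, Notch and Hippo genes, and at none of the cardiac, early mesoderm, pluripotency, Wnt, BMP and TGF-beta or housekeeping genes. Counts this small are given as a description.

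Endothelial genes included both gained and always-open regions. A list 3 region inside Flt1, the VEGF receptor 1 gene (chr5:147637088-147638152, score 95.04), had an ATAC peak in 4 of 4 induced and 0 of 4 uninduced libraries. A weaker one 25.2 kb from Flt1 (score 53.7) had a peak in 4 induced and 2 uninduced libraries. Regions inside Pecam1, an adhesion molecule of endothelium (score 79.6), and 5.06 kb from Aplnr, the apelin receptor (score 76.5), were open in 8 of 8 libraries. At Nrp2, a neuropilin co-receptor, a list 3 region 24.2 kb away (score 69.4) was gained in CPC and already open in EPC, and a list 1 region inside the gene (score 57.6) was gained in EPC and without a peak in CPC.

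Among SOX genes, those with a single-list region were Sox7 and the SOXD genes Sox5, Sox6 and Sox13. The Sox7 region, inside the gene (chr14:63947894-63948810, list 3, score 43.9), had an ATAC peak in 4 of 4 induced and 0 of 4 uninduced libraries. DNA of the Sox7 transgene and of the gene cannot be told apart there. A Sox13 region 9.58 kb from the gene (score 47.4) showed the same pattern, and one inside Sox13 (score 59.0) had a peak in 3 of 4 induced and 0 of 4 uninduced libraries. The Sox5 region (score 68.2) was gained in CPC and open in all 4 EPC libraries. Both Sox6 regions, of list 3 (score 56.7) and list 1 (score 49.4), had no ATAC peak in any library.

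Notch genes had 3 regions. One inside Notch1 (score 62.0), a receptor of arterial endothelium, had a peak in 3 of 4 induced and 0 of 4 uninduced libraries. The Maml1 promoter, of a Notch co-activator (score 52.6), was open in all 8, and the list 1 region inside Notch3 (score 45.0) in 5. The Hippo genes Tead4 (5.58 kb away), Tead3 and Vgll4, of which the first 2 encode DNA-binding partners of Yap and the last a Tead cofactor, had regions without any ATAC peak (scores 46.7, 44.3 and 47.5, lists 3, 1 and 4). The region inside Tead1 (list 3, score 61.4) was open in all 4 CPC libraries, in both induced EPC libraries and in neither uninduced one.

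Endoderm genes were led by Foxa2. A region 14.7 kb from Ttr, the transthyretin gene (score 103), was gained in CPC and had an ATAC peak in 2 of 2 induced and 1 of 2 uninduced EPC libraries. The region 42.6 kb from Gata6 (score 69.6), which is also in the cardiac list, had a peak in 1 induced EPC library alone. Sparc, a matrix glycoprotein gene (score 78.6), was open in 3 induced and 3 uninduced libraries, and the stronger Lamb1 region, in a laminin gene (score 57.0), in none. The list 1 region 39.3 kb from Dab2, an endocytic adaptor (score 47.0), was gained in CPC and open in all EPC libraries. Cardiac genes gave no gained region. The list 2 region 6.64 kb from Nkx2-5 (score 67.3) had no ATAC peak, and the list 3 region inside Tbx5 (score 59.2) had one in 4 induced and 3 uninduced libraries. Among blood genes, the region inside Runx1 (score 69.6) was open in 3 induced and 3 uninduced libraries. The region inside Nfe2 (score 55.2) was gained in CPC, and in EPC it had a peak in 0 of 2 induced and 1 of 2 uninduced libraries.

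Promoters were a minor place for these regions, again with list 2 apart. A RefSeq promoter window was touched by 131 of 2339 (5.60%), by 6.97% of list 3, 6.01% of list 1, 4.82% of list 4 and 1.90% of list 2, against 2.74% of the uninduced comparison set. The motif ACAAT, searched on both strands, was in 79 of the 146 promoter windows under single-list regions (54.1%, exact 95% interval 45.7 to 62.4), with overlapping windows of a gene counted once, against 31.3% of all 30762 windows. By source list it was in 64 of 105 windows of list 3 (61.0%), 10 of 27 of list 1, 3 of 10 of list 2 and 2 of 4 of list 4, and in 4 of 12 of the uninduced set. AACAAT, which contains ACAAT, was in 24.0% against 10.8% of all windows, and ACAAAG in 19.2% against 18.9%. The median GC content was 55.7% under single-list regions and 52.7% in all windows. A match is a description of these letters and not a binding site, and the windows cover a small part of the regions.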

How the data were processed

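Each library had 1 deposited peak list, on mm10 (GRCm38). Per the submitters' processing notes, tools named without a role include Bowtie2, SAMtools, bedtools and MACS 1.4. The score in each deposited list is the authors' own value per peak (minus 10 times the log10 of p in the MACS 1.4 format). No list holds read counts, so depth is unknown and a missing peak can come from a shallower library.

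Peaks were merged with Python 3.11.15, numpy 2.4.6 and SciPy 1.17.1. An ATAC peak touching a region by 1 bp counted as present. Shares per library were tested by exact permutation of the labels, two-sided with the smaller tail doubled. Shares have exact (Clopper-Pearson) 95% intervals. The labels do not say whether replicates were separate cultures, so the spread behind each p may be technical. Genes, promoter windows and sequences came from RefSeq tables of GRCm38.p6, and all 275 listed genes matched. The merging and the test were tested on simulated lists. The regions, gene lists and tests were chosen with earlier results of these data known. Named regions were the 4 highest scores of each induced list, the 10 highest gained in both cell types, up to 6 at genes of 7 lists, the Sox7 gene and the 3 highest 2-list regions. The RNA-seq samples and the authors' lists of ATAC and Gata4 overlaps were not used here. A PDGFRα+FLK1- sort is named in the growth protocol as well, and groups were taken from the sample characteristics.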

Additional observations from a re-analysis of the deposited data

Results flagged for a closer look

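Among the 4 induced lists, list 4 stood apart in the share of its single-list regions that lay on an input peak. The share was 8.43% (7 of 83, exact 95% interval 3.46 to 16.6) in list 4, against 1.31%, 1.33% and 0.742% in lists 1, 2 and 3. The gap to the nearest other list was 0.923 of the whole range, above Dixon's 95% critical value for 4 samples. Chance flags about 1 in 20 such groups, and 11 measures were looked at. List 4 also gave the fewest single-list regions, 83. The part of the input in its other values was not tested.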

How the results depend on the processing

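The ATAC gain at single-list regions kept its direction in each of the 29 alternatives run, and so did its difference from the uninduced set in 30. Leaving out 1 ChIP list gave a gain of 9.77 (without list 3) to 21.1 points, and leaving out 1 ATAC library 15.8 to 17.7 points.

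Counts followed the cut-off. Scores of 50 or more left 1523 regions. Scores of 100 or more left 453 regions, 108 gained in CPC, 91 in EPC and 46 in both, 339 genes and a median score of 125. With every ChIP list reduced to the shortest, these were 442, 83, 76, 41, 334 and 98.3. An ATAC score of 100 or more gave 176 gained in CPC. Without 1 ChIP list, there were 1356 to 2415 regions, 95 to 297 gained in CPC, 105 to 321 in EPC and 38 to 124 in both, and 976 to 1705 genes; each lowest value was without list 3. Without 1 ATAC library, 276 to 376 were gained in CPC, 297 to 400 in EPC and 119 to 151 in both. Leaving out only the members of list 3, chosen after seeing the data, gave 991 regions, 26, 28 and 9 gained and 728 genes.

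With uninduced lists 2 and 4 counted separately, the share gained in CPC differed by 7.44 points and the ATAC gain by 15.7 points between 4 and 4 lists, both at exact permutation p = 0.0286, where the near-identical lists are counted as independent. With every ATAC list reduced to the shortest, the list 2 difference reversed to -0.0952 points. The replicate block gave the same 16.7 points for ATAC libraries (exact sign-flip p = 0.125, the smallest possible) and 15.7 points for ChIP lists (p = 0.125 by the exact test). Same-numbered ChIP lists had correlations of 0.0590, 0.0467, -0.0203 and -0.0975. These values show no pairing by number, but they cannot exclude that same-numbered samples came from 1 experiment. The main tests used no replicate block. When the score of 100 was asked only of the merged single-list regions, 1 uninduced library had any and the per-list test gave no value. The share of SOX motifs by ChIP list was not run. Depth limits all counts of presence.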
